A study of Parhyale hawaiensis with 10 samples.

Results

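Open chromatin was compared between a single whole embryo of Parhyale hawaiensis at stage 23 and a single whole embryo at stage 20. Parhyale is an amphipod crustacean, and both embryos came from its Chicago-F inbred line. Each was freed of its egg membranes, dissociated in detergent buffer and treated with the Tn5 transposase (ATAC-seq), which inserts sequencing adapters where DNA is not covered by nucleosomes. The peaks called in each embryo were merged wherever they overlapped by at least 1 bp, which gave 96086 regions, of 281010 regions in the 9 nuclei libraries of the series. A region was called stage 23 only, stage 20 only or shared, according to the list or lists that held a peak in it. The regions were then looked up in 7 later libraries of the same line: 1 whole embryo at stage 24, 3 libraries of T4 to T8 legs pooled from embryos of stages 25 to 26, and 3 libraries of uninjured adult T4 and T5 legs. Another library, in which the naked DNA of a whole adult was treated with the transposase, gave the background of the assay. Per the labels' protocols, leg tissue was sheared through a needle in a buffer of other detergents and filtered, so that preparation differs between whole embryos and legs, and leg identity differs between embryonic and adult legs as age does. Each embryonic stage is 1 animal without a replicate, so a difference between stages 23 and 20 could also be a difference between animals or libraries.

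In arthropods, as in other animals, genes are switched on in particular cells by promoters and by distant enhancers. Where transcription factors hold such a sequence free of nucleosomes, it is cut by the transposase and appears as an ATAC-seq peak. Parhyale embryos are staged by visible landmarks, and over the later stages the limb buds grow out and acquire their segments. A whole embryo mixes all its tissues, so an element open in a few cells gives a weak peak or none, and a smaller number of cells with an open element cannot be told apart from lower accessibility in each cell.

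The 2 stages had lists of similar length but held mostly different regions. Stage 23 gave 56606 peaks covering 15.6 Mb and stage 20 gave 60435 peaks covering 16.2 Mb. Of the merged regions, 35868 (37.3%) were stage 23 only, 39638 (41.3%) were stage 20 only and 20580 (21.4%) were shared. Thus 36.6% of the stage 23 peaks overlapped a stage 20 peak, and 34.4% of the stage 20 peaks overlapped a stage 23 peak. Measured in base pairs, the lists shared 34.5% of the stage 23 sequence and 33.3% of the stage 20 sequence.

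The lists hold no read totals. The most frequent expected pileup, the number of fragments expected over a position from the genome-wide background, served as a rough measure of depth. Whether whole fragments or extended reads were counted is not stated, and they are called fragments here. The expected pileup also rises with the length counted for each, so it does not measure depth alone. It was 0.233 at stage 23 and 0.404 at stage 20, and 0.252 to 0.555 in the later libraries, of which embryonic leg 2 (0.394) and adult leg 3 (0.252) lay below stage 20. The median peak had a summit of 5 fragments at stage 23 and 6 at stage 20, and the lowest summits called had 3 and 4 fragments at these stages. A q-value of 1e-05 or lower was reached by 27.4% of the stage 23 peaks and 27.0% of the stage 20 peaks, against 46.6% to 63.2% in the later libraries. At a few fragments per peak, a region without a peak was not detected; it was not shown to be closed.

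The overlap followed peak strength. Each list was ranked by the authors' −log10 q, with ties ordered by fold, and divided into 10 equal groups, called deciles here. Ties crossed some borders, so that stage 23 deciles 2 and 3 both began at a −log10 q of 1.616. In the weakest decile 11.7% of the stage 23 peaks had a partner at stage 20, and 10.95% of the stage 20 peaks had one at stage 23. In the strongest decile the shares were 86.3% (95% Wilson interval 85.4% to 87.2%) for stage 23 peaks and 84.6% (83.7% to 85.5%) for stage 20 peaks. The share was higher in each decile than in the one before it in both lists, and most one-stage regions were weak. Stage 23-only regions had a median summit of 4 fragments and a median fold over the expected pileup of 3.98 (the authors' value), and stage 20-only regions 6 fragments and a fold of 4.18. The shared regions had 8 fragments and a fold of 5.68 in the stage 23 list, and 9 fragments and a fold of 5.91 in the stage 20 list. Intervals on shares in this text cover counting error only, since fragments and neighbouring regions are not independent.

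**Figure D1:**
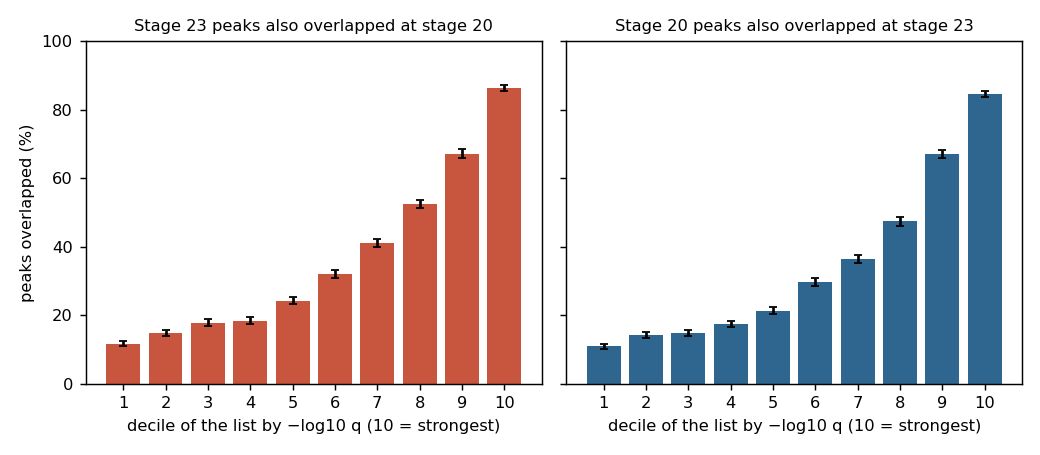
Share of peaks overlapped by at least 1 bp by a peak of the other embryo (y axis, percent), by decile of the authors' −log10 q within the list (x axis, 10 = strongest); stage 23 peaks are on the left and stage 20 peaks on the right. Bars are shares and error bars 95% Wilson intervals; the share climbs from 11.7% to 86.3% over the stage 23 deciles and from 10.95% to 84.6% over the stage 20 deciles.

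Few regions were assigned to a single stage by a narrow margin of distance to a called peak of the other stage. Signal of the other embryo below the calling threshold is not in the lists, so a margin in signal was not tested. A stage 20 peak lay within 10 bp of 87 stage 23-only regions and within 500 bp of 1568 (4.37%). For stage 20-only regions, a stage 23 peak lay within 10 bp of 92 and within 500 bp of 1849 (4.66%). The median gap to the nearest peak of the other stage was 15.3 kb from stage 23-only and 14.3 kb from stage 20-only regions, leaving out the 8.84% and 11.1% of these classes on scaffolds without such a peak. On the other side of the rule, 97 of the 20955 overlapping pairs of peaks shared 10 bp or less, whereas the median pair shared 99.7% of its shorter peak. In the median pair the shorter peak thus lay almost wholly within the longer one. Of the shared regions 20224 (98.3%) held 1 peak of each stage. Over all pairs the strongest summits of the 2 stages lay a median of 46 bp apart. They were within 50 bp in 52.8% of cases and within 100 bp in 71.7%.

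Shared regions were wider than one-stage regions, which is partly fixed by merging. Merged widths had medians of 209 bp in stage 23-only, 199 bp in stage 20-only and 383 bp in shared regions. The single peaks behind the shared regions were also wider, with medians of 295 bp at stage 23 and 294 bp at stage 20. Where a shared region held 1 peak of each stage, neither stage was the wider one: both medians were 292 bp, and the stage 23 peak was the wider in 48.8% of cases. The difference of 10 bp between the one-stage classes is close to that of the narrowest peak allowed in each list, 149 bp at stage 23 and 137 bp at stage 20. Within the strongest decile, peaks without a partner were still narrower than peaks with one, at 295 and 407 bp for stage 23 and 269 and 416 bp for stage 20.

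MACS2 lists each summit of a peak, so a count of summits describes how many maxima of cutting a region holds. One-stage regions almost always had 1 summit: 117 of the stage 23-only regions (0.326%) and 293 of the stage 20-only regions (0.739%) held a peak with 2 or more, against 2652 (12.9%) of the shared regions and 3.19% of all regions. The most complex stage 23-only region had 3 summits, the most complex stage 20-only region 6 and the most complex shared region 13. In shared regions with 1 peak of each stage, the summit numbers were equal in 18127, higher at stage 23 in 629 and higher at stage 20 in 1468. The difference between the one-stage classes depended on naked DNA. With peaks on naked DNA left out of both lists, the share with several summits was 0.339% in stage 23-only and 0.334% in stage 20-only regions.

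The median gap to the nearest region of the same class was 21.2 kb (95% order statistic interval 20.95 to 21.6 kb) for stage 23-only, 18.4 kb (18.1 to 18.7 kb) for stage 20-only and 29.2 kb (28.1 to 30.1 kb) for shared regions. A neighbour of the same class lay within 5 kb of 10.6% of stage 23-only, 16.4% of stage 20-only and 12.9% of shared regions. Each class was more frequent among its own nearest neighbours than among all regions. The nearest region was of the same class in 41.9% of stage 23-only, 44.1% of stage 20-only and 28.6% of shared regions, whereas the classes make up 37.3%, 41.3% and 21.4% of regions. The neighbour shares leave out 2875, 4016 and 3275 regions that were alone on their scaffold, which the class shares include. The shared class has the fewest members, and the gap to a neighbour of any class gave another order, with medians of 9.13 kb for stage 23-only, 8.03 kb for stage 20-only and 7.81 kb for shared regions. Some regions had no neighbour of their class on their scaffold, namely 3294 stage 23-only, 4451 stage 20-only and 3711 shared regions.

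Spacing changed abruptly near 5 kb in both lists. In the stage 23 list 900 peaks had their nearest neighbour at 3 to 4 kb and 2736 at 5 to 6 kb, and in the stage 20 list 1270 and 2753. The expected pileup changed at the same distance, with medians of 0.569 for stage 23 peaks with a neighbour within 5 kb and 0.405 for those with one at 5 to 10 kb, and 0.820 and 0.606 for the matching stage 20 peaks. In both lists, peaks with a close neighbour were therefore called over a higher expected pileup. The part of this in the spacing was not tested.

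**Figure D2:**
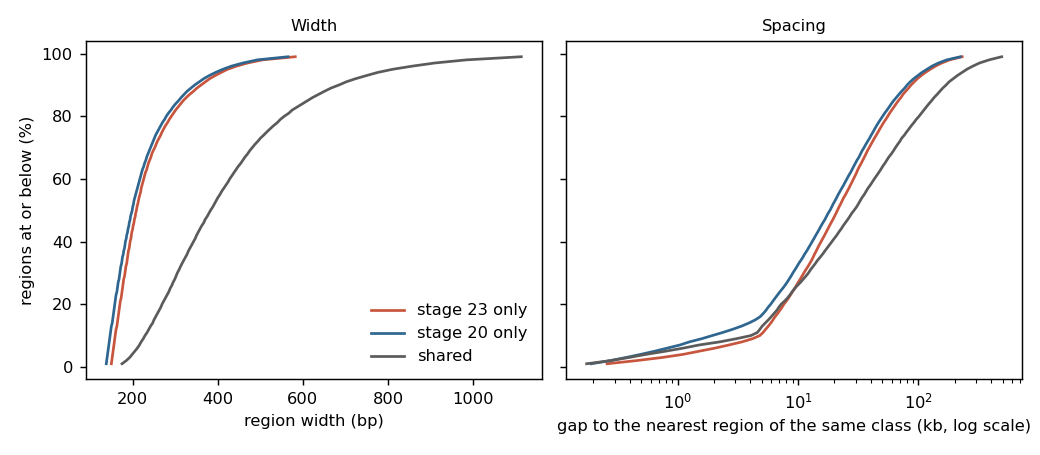
Cumulative distributions over regions (y axis, percent of regions at or below the value) of merged width in bp on the left and of the gap to the nearest region of the same class in kb, on a log axis, on the right. Lines are stage 23-only, stage 20-only and shared regions from the 1st to the 99th percentile; shared regions are wider (median 383 bp) and farther from their own class (29.2 kb), which has the fewest members, and all 3 gap curves bend near 5 kb.

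Naked DNA lacks chromatin, so a peak there marks sequence that the transposase cuts often or that gathers reads for another reason. The naked DNA list held 161533 peaks covering 89.7 Mb, with a median width of 453 bp. Its most frequent expected pileup was 5.11, against 0.233 to 0.555 in the nuclei libraries. Stage 23-only regions overlapped a naked DNA peak in 17.3% of cases (95% Wilson interval 16.95% to 17.7%), stage 20-only regions in 24.2% (23.7% to 24.6%) and shared regions in 42.1% (41.4% to 42.7%), against 25.5% of all regions. Scaffolds on which peaks reach 1 Mb held 87.9% of stage 23-only, 84.9% of stage 20-only and 76.6% of shared regions, against 84.2% of all regions. The order of the classes was kept there, with naked DNA overlap of 15.6%, 20.6% and 33.1%, and on the shorter scaffolds, with 29.8%, 44.0% and 71.4%. Shared regions were also the widest, and the part of width in their overlap was not tested.

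Strong one-stage peaks differed between the stages in this respect. Among stage 23 peaks without a partner, the naked DNA share was 13.5% in the weakest decile, at most 21.6% in any decile and 15.3% (12.9% to 18.0%) in the strongest. Among stage 20 peaks without a partner it was 14.9% in the weakest and 46.7% (43.5% to 49.9%) in the strongest decile. The strongest unpartnered peaks numbered 773 at stage 23 and 929 at stage 20. On scaffolds reaching 1 Mb, which held 75.3% of these stage 23 and 54.1% of these stage 20 peaks, the shares were 14.9% and 41.4%. Peaks with a partner in the strongest decile overlapped naked DNA in 44.98% of cases at stage 23 and 59.8% at stage 20. Strong stage 23-only peaks thus overlapped naked DNA about as often as weak ones, and strong stage 20-only peaks more often than weak ones.

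**Figure D3:**
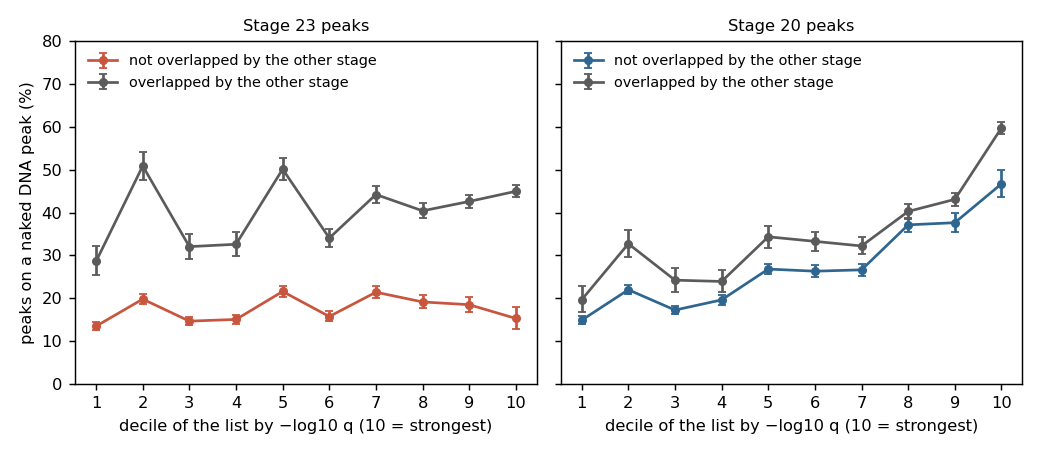
Share of peaks overlapping a naked DNA peak (y axis, percent) by decile of −log10 q within the list (x axis, 10 = strongest), for stage 23 peaks on the left and stage 20 peaks on the right, with 95% Wilson intervals. Coloured points are peaks not overlapped by the other stage and grey points those overlapped; in the strongest decile the unpartnered share is 15.3% at stage 23 and 46.7% at stage 20.

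The later libraries showed how often each class was called again. At stage 24, 37.1% of the stage 23-only regions (95% Wilson interval 36.6% to 37.6%), 33.7% of the stage 20-only regions (33.2% to 34.1%) and 78.3% of the shared regions (77.7% to 78.8%) were called, against 44.5% of all regions. The 13341 stage 20-only regions called at stage 24 were present on both sides of stage 23 without being called in the stage 23 embryo. In embryonic legs 1, 2 and 3 the stage 23-only share was 29.3%, 28.0% and 36.4%, the stage 20-only share 26.7%, 22.3% and 33.1%, and the shared share 78.2%, 74.9% and 83.4%. Those libraries called 38.7%, 35.7% and 45.1% of all regions. In adult legs 1, 2 and 3 the stage 23-only share was 25.6%, 15.6% and 17.0%, the stage 20-only share 18.9%, 14.7% and 11.9%, and the shared share 69.6%, 62.96% and 60.8%, where the libraries called 32.3%, 25.4% and 24.3% of all regions. Shared regions were thus called more than one-stage regions in every later library. The stage 24 list also had no peak narrower than 200 bp, whereas narrower peaks were called in the other nuclei libraries.

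Regions of every class were called less often in adult than in embryonic legs. Stage 23-only regions averaged 19.4% ± 5.41 in adult and 31.2% ± 4.50 in embryonic legs, stage 20-only regions 15.2% ± 3.54 and 27.4% ± 5.41, and shared regions 64.5% ± 4.56 and 78.9% ± 4.27 (SD, n = 3 each). The differences, embryonic minus adult, were 11.8, 12.2 and 14.4 percentage points. No adult value reached an embryonic one in any class, and an exact permutation test, two-sided, returned p = 0.1 for each (n = 3 each; 0.1 after Benjamini-Hochberg adjustment over the 3 classes), the smallest that 3 libraries against 3 allow. The lists also differed in length, with 48324 to 76268 peaks in adult and 77357 to 119487 in embryonic leg libraries. When each nuclei list was shortened to its strongest 48324 peaks, the differences were 4.33, 3.28 and 2.25 points (exact permutation p = 0.1, 0.1 and 0.2). At a q-value of 1e-05 or lower in all lists they were 21.1, 24.3 and 11.2 points, each with an exact p of 0.1. Among regions with a naked DNA peak they were 6.11, 5.99 and 4.26 points (exact p = 0.1, 0.3 and 0.2), and among regions without one 13.0, 14.2 and 21.8 points (exact p = 0.1 each). After Benjamini-Hochberg adjustment over the 3 classes, the exact p was 0.3 for each class with a naked DNA peak. The embryonic leg mean was higher in all of these, and the size of the difference depended on list length, on strength and on naked DNA overlap. Single libraries overlapped in some sets. Adult leg 2 exceeded embryonic leg 3 in shared regions of the shortened lists (66.5% and 65.2%). On naked DNA it exceeded embryonic leg 2 in stage 20-only (29.1% and 23.8%) and shared regions (75.4% and 71.2%). Adult leg 1 (24.1%) also exceeded embryonic leg 2 in stage 20-only regions on naked DNA.

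Stage 23-only regions were called more often than stage 20-only regions in every leg library. The difference was 2.56, 5.69 and 3.29 percentage points in embryonic legs 1 to 3 and 6.69, 0.898 and 5.16 points in adult legs 1 to 3, with a mean of 4.05 ± 2.17 (SD over 6 libraries). The exact two-sided sign permutation test over the 6 leg libraries gave p = 0.03125, the smallest it allows, and 0.0625 without any 1 library, the smallest that 5 allow. It compares 2 embryo lists across leg libraries and does not test the stages. The difference was 4.25 ± 3.00 points in adult legs and 3.84 ± 1.64 points in embryonic legs (p = 0.9 by the exact permutation test, two-sided).

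The difference depended on naked DNA. Among regions without a naked DNA peak it was 6.09 ± 1.78 points (higher in 6 of 6 leg libraries; exact sign permutation p = 0.03125). Among regions with one it was −2.63 ± 3.13 points, with stage 23-only regions lower in 5 of the 6 libraries (exact sign permutation p = 0.09375). With these shortened lists it was 5.85 points.

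**Figure D4:**
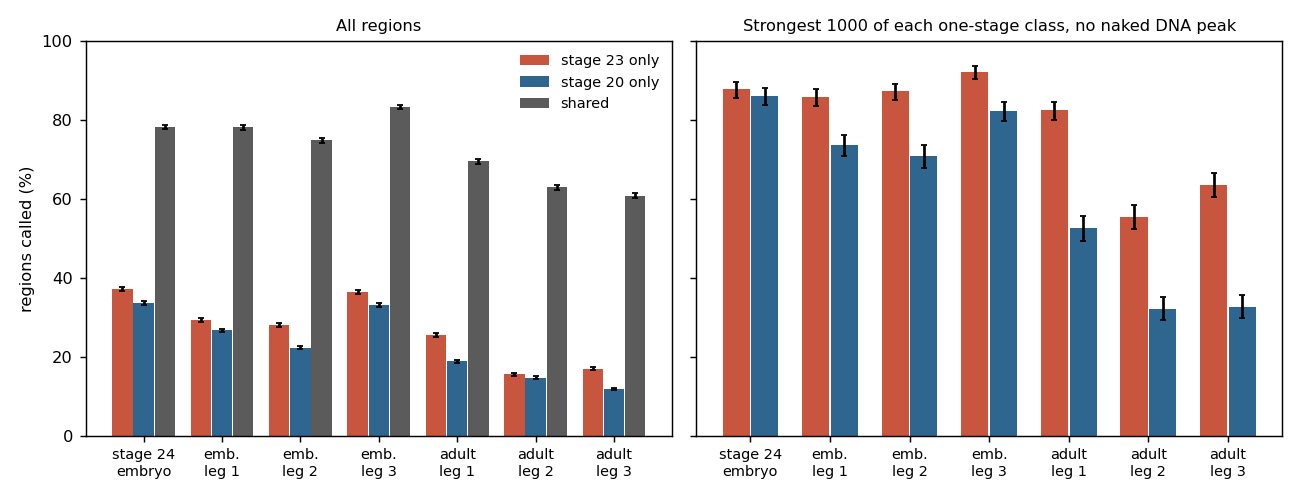
Share of regions called in each of the 7 later libraries (y axis, percent; x axis, library), for all regions of the 3 classes on the left and for the 1000 regions of each one-stage class with the highest −log10 q, without a naked DNA peak and on scaffolds reaching 1 Mb, on the right. Error bars are 95% Wilson intervals; on the right the stage 24 shares are 87.9% and 86.1%, and the adult leg 1 shares 82.5% and 52.6%, for stage 23-only and stage 20-only regions.

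Because most one-stage regions were weak, the strongest were also described apart. The 1000 one-stage regions of each class with the highest −log10 q, off naked DNA and on scaffolds reaching 1 Mb, were called at stage 24 in 879 stage 23-only and 861 stage 20-only cases. For the 100 strongest of each class the stage 24 counts were 97 and 86, so the nearness of the shares depended on the size of the set. In embryonic legs 1, 2 and 3 the stage 23-only set of 1000 was called in 85.8%, 87.4% and 92.2% of cases and the stage 20-only set in 73.7%, 70.9% and 82.3%. In adult legs 1, 2 and 3 the stage 23-only set was called in 82.5%, 55.5% and 63.6% and the stage 20-only set in 52.6%, 32.2% and 32.7%. The stage 20-only set was the lower in all 6 leg libraries, by the most in adult legs 1 and 3. All 7 later libraries called 427 regions of the stage 23-only set and 196 of the stage 20-only set. All 3 embryonic leg libraries and no adult leg library called 59 of the stage 23-only set (5.9%, 95% Wilson interval 4.60% to 7.54%) and 161 of the stage 20-only set (16.1%, 13.95% to 18.5%). Of all regions, weak ones included, 44.5% were called at stage 24, 12.3% in all 7 and 4.55% in this last pattern. Single leg libraries called 24.3% to 45.1% of all regions. The stage 20-only set was also narrower, with a median width of 238 bp, where the stage 23-only set had 278 bp. The sets were not matched for strength. The stage 20-only set had a median fold of 7.68 and a lowest −log10 q of 7.31, against 8.15 and 7.76. Its median summit was higher, at 14 against 13 fragments. The size of these sets was chosen after the values were seen, and they carry no test.

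In patterns of later presence, the widest differences lay between shared and one-stage regions. Stage 24 together with at least 1 leg library called 29.8% of stage 23-only, 26.0% of stage 20-only and 75.4% of shared regions. No later library called 15896 stage 23-only regions (44.3%), 18196 stage 20-only regions (45.9%) and 893 shared regions (4.34%), against 36.4% of all regions. All 7 called 2365 stage 23-only (6.59%), 1326 stage 20-only (3.35%) and 8164 shared regions (39.7%), against 12.3% of all regions. Stage 24 alone called 7.30% of stage 23-only, 7.69% of stage 20-only and 2.90% of shared regions, against 6.52% of all regions. At least 1 leg library without stage 24 called 18.6%, 20.4% and 17.4%, against 19.1% of all regions. All 3 embryonic leg libraries and no adult leg library called 4.23% of stage 23-only, 4.33% of stage 20-only and 5.53% of shared regions, against 4.55% of all regions. The reverse pattern, all adult and no embryonic legs, was rare at 0.315%, 0.247% and 0.432%, against 0.312% of all regions.

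Regions called again were wider and stronger. Stage 23-only regions found in none of the 7 later libraries had a median width of 193 bp and a summit of 4 fragments, and those found in all 7 had 270 bp and 8 fragments. Stage 20-only regions found in none had medians of 185 bp and 5 fragments, and those found in all 7 had 237 bp and 9 fragments. Shared regions found in all 7 had a median width of 454 bp, and 24.1% of them held several summits, against 0.224% of the shared regions found in none. Naked DNA overlap did not follow the same order: it was 15.7% for stage 23-only regions found in none and 13.4% for those found in all 7, and 18.8% and 24.1% for stage 20-only regions.

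Individual regions were then named from those off naked DNA on scaffolds reaching 1 Mb. They are given by scaffold position, counted from 1, with the authors' fold, which ranks peaks within a list and is not on a common scale across lists. The 6 strongest stage 23-only regions were 182 to 579 bp wide and had folds of 12.6 to 18.3 at stage 23. The first, on phaw_50.282654a at 988645 to 989164, had a fold of 18.2 at stage 23 and was called in all 6 leg libraries but not at stage 24. Its folds there were 12.5, 20.0 and 8.83 in embryonic legs 1 to 3 and 17.1, 15.0 and 16.6 in adult legs 1 to 3. The second, on phaw_50.283869c at 34708347 to 34708837, was called in all 7 later libraries and lay 60 bp from a stage 20 peak. Of the 6, 4 were called in all 7 and every one in all 3 embryonic leg libraries. On phaw_50.282997b at 13065417 to 13065786, folds were 12.6 at stage 23, 19.3 at stage 24, 22.7, 24.5 and 20.8 in embryonic legs 1 to 3 and 5.00 in adult leg 1, with no peak in adult legs 2 and 3.

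The 6 strongest stage 20-only regions were narrower, at 138 to 292 bp, and were called in fewer later libraries. None was called in all 7. The first, on phaw_50.283355a at 2404937 to 2405171, had a summit of 168 fragments and a fold of 15.3 at stage 20 but was called later only at stage 24 (fold 9.90) and in embryonic leg 3 (14.6). The second, on phaw_50.283743a at 2620719 to 2621010, had 111 fragments and a fold of 8.46. It was called later in embryonic leg 3 alone. That on phaw_50.283863b had 45 fragments at a higher fold, 23.1, so both these regions lay over a higher expected pileup. The region on phaw_50.283863b at 12462853 to 12463034 was called in all later libraries but adult leg 2, with folds of 23.1 at stage 20, 26.8 at stage 24, 16.3, 17.2 and 27.2 in embryonic legs 1 to 3, and 9.66 and 7.83 in adult legs 1 and 3. The region on phaw_50.283861a at 2020278 to 2020415 was called later at stage 24 alone, with folds of 22.2 at stage 20 and 24.1 at stage 24. That on phaw_50.282861e at 5307491 to 5307645 had a fold of 23.4 and 36 fragments at stage 20 and no peak in any later library. Of the 6, 4 were 138 to 189 bp wide, near the 137 bp of the narrowest peak in the stage 20 list.

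Strong regions found at a single stage and never later were rare. Of the 1000 strongest of each class described above, 17 stage 23-only (1.7%) and 34 stage 20-only regions (3.4%) were found in none of the 7. Of all regions, weak ones included, 36.4% were found in none. After the region on phaw_50.282861e, the next strongest stage 20-only regions found in none of the 7 were neighbours on phaw_50.283355a, at 2448462 to 2448752 (fold 8.81) and 2448133 to 2448310 (fold 8.32). The strongest such stage 23-only regions were on phaw_50.283869c at 29346724 to 29347071 (fold 9.26), phaw_50.283852 at 371902 to 372206 (8.72) and phaw_50.282543b at 22734632 to 22734968 (8.79). By contrast, the strongest stage 20-only regions found in all 7 were on phaw_50.283817e at 6827294 to 6827488 (fold 14.5), phaw_50.283823c at 37503677 to 37504016 (14.2) and phaw_50.000203b at 38263453 to 38263773 (12.0). The strongest shared region, on phaw_50.283829a at 2482142 to 2482411, had folds of 39.0 at stage 23 and 43.0 at stage 20, with folds of 35.7 to 41.6 in the leg libraries and 17.2 at stage 24. The next shared regions, on phaw_50.283873a, phaw_50.283817a and phaw_50.283871b, had folds of 18.5 to 22.2 at stage 23 and 18.4 to 24.4 at stage 20 and were called in all 7.

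The one-stage classes were not spread evenly over scaffolds. Of all one-stage regions 47.5% were stage 23 only, and on the 87 scaffolds with at least 300 of them the share ran between 29.7% and 65.3%, with an SD of 6.57 points. The 95% Wilson interval lay above 47.5% on 30 of these scaffolds and below it on 15. The lowest share was on phaw_50.000203b, with 444 stage 23-only and 1053 stage 20-only regions, and without this scaffold the overall share was 47.9%. It held 143 of every 10000 stage 23 peaks, 235 of every 10000 stage 20 peaks and 192 to 234 in the later libraries. The highest share was on phaw_50.283865d, with 254 stage 23-only and 135 stage 20-only regions. This scaffold held 61.5 of every 10000 stage 23 peaks, 38.2 of every 10000 stage 20 peaks and 29.4 to 37.2 in the later libraries. On these scaffolds the stage 23 embryo lay farthest from the later libraries. The next most extreme scaffolds showed the reverse. On phaw_50.283355a, with 415 stage 23-only and 243 stage 20-only regions, the numbers were 105 of every 10000 stage 23 peaks, 70.7 of every 10000 stage 20 peaks and 114 to 158 in the later libraries. On phaw_50.282997b, with 246 stage 23-only and 465 stage 20-only regions, they were 82.5 at stage 23, 113.7 at stage 20 and 42.9 to 62.2 in the later libraries. Neither embryo was thus the one set apart on all 4. These scaffolds were chosen for their values, and with 1 embryo a stage the imbalance has no replicate check.

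Windows of 100 kb located the densest groups of one-stage regions. Stage 23-only regions were most frequent on phaw_50.283865d at 9.3 to 9.4 Mb, with 12 of them beside 1 stage 20-only and 3 shared regions. Of these 12, 9 overlapped naked DNA, none was called at stage 24, 6 in an embryonic leg library, 2 in an adult leg library and 6 in no later library. The window on phaw_50.283852 at 22.2 to 22.3 Mb held 11 stage 23-only regions, of which 1 overlapped naked DNA, 7 were called at stage 24, 8 in an embryonic leg library and 10 in an adult leg library. A window on phaw_50.283865d at 8.1 to 8.2 Mb held 11, of which 5 overlapped naked DNA and 8 were called in no later library. Of all stage 23-only regions 17.3% overlapped naked DNA, 37.1% were called at stage 24 and 44.3% in no later library. At least 1 embryonic leg library called 42.7% of them and at least 1 adult leg library 31.3%. Windows of so few regions are given as counts only.

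Stage 20-only regions were most frequent on phaw_50.000203b at 30.4 to 30.5 Mb, with 20 of them beside 1 stage 23-only and 1 shared region, and at 30.2 to 30.3 Mb, with 18 beside 2 stage 23-only regions. Of the 20, 5 overlapped naked DNA, 5 were called at stage 24 and 7 in no later library. Of the 18, 6 overlapped naked DNA and 12 were called in no later library. Of all stage 20-only regions 24.2% overlapped naked DNA, 33.7% were called at stage 24 and 45.9% in no later library. The window at the start of phaw_50.005690 held 14 stage 20-only regions, of which 12 overlapped naked DNA. The whole megabase at 30 to 31 Mb of phaw_50.000203b held 76 stage 20-only and 13 stage 23-only regions, where the median megabase on scaffolds reaching 1 Mb held 12 of each. It had 16 peaks at stage 23, 79 at stage 20, 53 at stage 24, 15 to 30 in embryonic legs and 7 to 12 in adult legs. The megabase with the most stage 23-only regions, at 8 to 9 Mb of phaw_50.283865d, held 54 of them and 18 stage 20-only regions, with 73 peaks at stage 23, 38 at stage 20, 48 at stage 24, 40 to 48 in embryonic legs and 14 to 25 in adult legs. Naked DNA had 97 peaks in the megabase of phaw_50.283865d and 77 in that of phaw_50.000203b. The megabase windows were chosen after the values were seen.

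**Figure D5:**
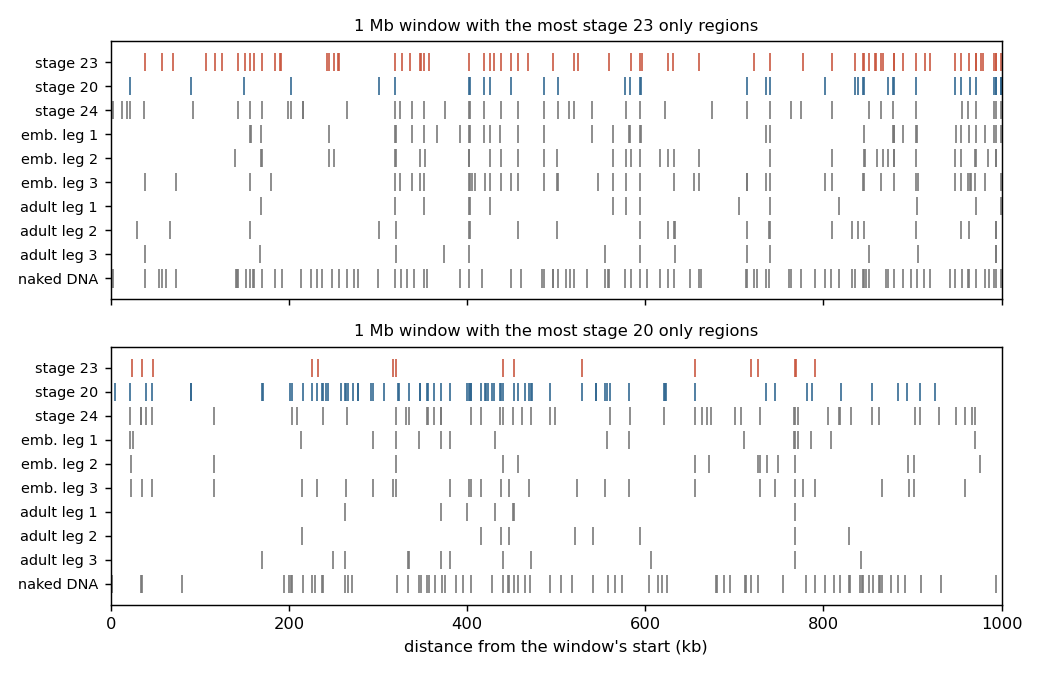
Peaks in the megabase with the most stage 23-only regions (top) and in that with the most stage 20-only regions (bottom); each tick is 1 peak at its distance from the window's start (x axis, kb), with 1 row per library (y axis). Stage 23 and stage 20 rows are coloured; the top window holds 73 stage 23 and 38 stage 20 peaks, and the bottom window 16 stage 23 and 79 stage 20 peaks.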

How the data were processed

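ATAC-seq peak lists of 10 libraries were used: whole embryos at stages 20, 23 and 24 (1 library each), embryonic legs (3), adult legs (3) and naked DNA (1). Per the submitters' processing notes the tools included MACS2 2.2.7.1, bedtools 2.31.1, Picard, SAMtools 1.21 and Bowtie2 2.5.4, listed with no role or order. The genome build, control, threshold and read shift were not given in the sources used here. No genome or gene annotation was used. Each library has its own deposited list. The fold of a peak is a deposited ratio, and its p-value and q-value are deposited −log10 values; every list ended at a −log10 q of 1.3. The deposited display score was not used. Depth is unknown from the files. It was gauged by solving fold and p-value for a whole-number pileup, which succeeded for 99.6% to 100% of rows (within 0.002 of the deposited −log10 p, wider for large values); 1.27% of stage 23 and 2.21% of stage 20 rows had a second solution, and the closer one was taken.

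Rows with the same start and end were counted as 1 peak with several summits. Regions were scored as called wherever a library's peak covered 1 bp or more of them. Python 3.11.15, numpy 2.4.6, pandas 2.3.3 and scipy 1.17.1 were used, and interval handling was tested on simulated data against bedtools 2.31.1. Leg libraries were compared with exact permutation tests; separate animals are not stated in the labels, and p-values reflect the spread of these libraries alone, which may be technical. Processing alternatives are given after the results. Named regions were those with the highest −log10 q of each class off naked DNA on scaffolds on which peaks reach 1 Mb (6 per one-stage class, 4 shared, and 3 each found in all or none of the 7 later libraries) and the 3 windows of 100 kb with the most regions. The regions, rules and comparisons were chosen with earlier results of these data known.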

Additional observations from a re-analysis of the deposited data

How the results depend on the processing

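The numbers of stage 23-only, stage 20-only and shared regions were 7533, 8360 and 7949 at a q-value of at most 1e-05 in all lists, and 11927 regions were shared without peaks on naked DNA. At that q-value the stage 23-only minus stage 20-only differences were 12 bp in median width, 17.6 kb in spacing, −4.89 points in the share with several summits, −24.1 points in naked DNA overlap, 10.1 points in presence at stage 24 and 12.2 points over the leg libraries, against 10 bp, 2.81 kb, −0.413, −6.83, 3.44 and 4.05 points as reported. With the same 48324 peaks from every nuclei library they were 5 bp, 2.00 kb, −0.615, −8.34 and 1.11 points at stage 24. Without peaks on naked DNA they were 14 bp, 1.08 kb and 2.65 points at stage 24, and the difference in several summits reversed to 0.00507 points. On scaffolds reaching 1 Mb the naked DNA difference was −5.02 and the summit difference −0.256 points. With an overlap of at least 50% the stage 24 difference was 2.01 points, and with peaks up to 500 bp apart merged the spacing difference was 2.23 kb. The causes of these shifts were not tested.

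The difference over the leg libraries was 3.72 to 12.2 points under the 6 processing alternatives, each with p = 0.03125 by the exact sign permutation test, and 3.52 to 4.68 points without 1 library, with p = 0.0625 because 5 libraries allow no less. Embryonic minus adult leg differences without 1 library were 9.24 to 14.9 points for stage 23-only, 9.37 to 14.7 for stage 20-only and 12.1 to 16.96 for shared regions. Same-numbered embryonic and adult leg libraries did not deviate together (r of −0.0342 to −0.0123 across regions). Pairing them by replicate number as a block left the differences at 11.8, 12.2 and 14.4 points with an exact p of 0.25, the smallest that 3 pairs allow. The lowest summits called had 3 or 4 fragments in every nuclei library, and regions without a peak were not detected at that depth.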
